A study of Mus musculus with 22 samples.

Results

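The 7 genes described here encode receptor chains for interleukin 2 (IL-2) and the cytokines related to it: Il2ra, Il2rb, Il2rg, Il15ra, Il4ra, Il21r and Il9r. They were taken by name. All 7 were found among the 55011 genes of the deposited count table, and all 7 passed the filter on low counts that left 15462 genes for testing. Il7r, the IL-7 receptor alpha chain, completes the family and is given beside them.

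Il2rg encodes the common gamma chain (CD132), which every receptor of this family shares and which signals through the kinase JAK3. The alpha chain Il2ra (CD25) and the beta chain Il2rb (CD122) join it to form the high-affinity receptor for IL-2, while Il2rb and Il2rg alone form a receptor of intermediate affinity that also reads IL-15. Regulatory T cells (Treg) make little IL-2 themselves, carry much CD25 and depend on IL-2 signals relayed by the transcription factor STAT5.

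RNA was measured by Smart-seq, a full-length cDNA method, in 22 libraries of CD4+ T cells sorted from lymph nodes of C57BL/6 mice on day 50 of an adoptive transfer experiment. Recipients in all 3 groups were scurfy mice, which lack functional Foxp3. They received cyclophosphamide at 50 mg/kg when 10 days old, the donor cells by intraperitoneal injection on day 14, and human IL-2 at 1000 IU per g, daily over the first 5 days and weekly after that. The FOXP3 group held scurfy CD4+ T cells given a vector with human FOXP3 and LNGFR, a truncated nerve growth factor receptor used as a surface reporter. The LNGFR group held scurfy CD4+ T cells given the empty vector with that reporter. The WT Treg group held transferred CD4+CD25+ cells that carried CD45.1. From each, 1000 LNGFR+ or CD45.1 cells were sorted in 2 rounds. The genotype label, Scurfy - FOXP3 KO, stands on all 22 libraries, those of WT Treg included. There was no group without human IL-2, so the receptor values below were all taken after that treatment. The WT Treg donors had been chosen on CD25, the protein of Il2ra, before transfer, whereas the sort on day 50 used CD45.1.

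Each title carries a code, such as F1 or G2, which 2 libraries share. The 2 were summed and counted as 1 replicate, which gave 5 FOXP3 codes (F1, F2, F5, N2, N3), 3 LNGFR codes (G1, G2, G3) and 3 WT Treg codes (E2, G4, L1). Nothing in the labels ties a code to a separate animal, and the p-values below therefore reflect only how the codes scatter, some of which may be technical. Totals ran from 1154626 (E2) to 10376164 (F2) counts per code, and the 3 shallowest libraries, both of E2 and 1 of G1, held 332570 to 641980 counts each. In those 3 libraries 28.3% to 55.7% of counts fell on 11 repeat-derived gene models, against 2.09% to 4.27% in the other 19. All 8 T-cell markers were detected in every group, with Cd3e between 307 and 801 counts per 1000000 (CPM, with totals scaled by TMM) and Cd4 between 187 and 724. All 12 B-cell markers were detected as well, with a summed level of 155 to 643 CPM in 4 FOXP3 codes and 5729 in N3, 585 to 1680 in LNGFR (highest in G1) and 159 to 276 in WT Treg. Mouse Foxp3, which checks the WT Treg label against the scurfy groups, stood at 228 ± 54.3 CPM (SD, n = 5) in FOXP3, 86.1 ± 51.5 (n = 3) in LNGFR and 1305 ± 521 (n = 3) in WT Treg. The human transgene has no row in the table, so the FOXP3 and LNGFR labels could not be checked by it.

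Il2ra was the only one of the 7 genes whose FOXP3 codes, and whose WT Treg codes, did not overlap with the LNGFR codes. Its mean was 611 ± 99.1 CPM (SD, n = 5) in FOXP3, 276 ± 47.1 (n = 3) in LNGFR and 715 ± 334 (n = 3) in WT Treg. The gene lies on chromosome 2 at 11642807 to 11693193, plus strand, on GRCm38 as annotated by GENCODE M21. Its neighbour Il15ra starts 12096 bp downstream on the same strand. The window of 250 bases before the Il2ra start is shown because this is the gene whose codes separated from LNGFR, and that of Il21r because it was the only window among the 7 that held forkhead letters. Both are from RefSeq on GRCm38.p6, plus strand, 5′ to 3′, and capitals mark a forkhead match.
Il2ra promoter, chr2:11642542-11642791: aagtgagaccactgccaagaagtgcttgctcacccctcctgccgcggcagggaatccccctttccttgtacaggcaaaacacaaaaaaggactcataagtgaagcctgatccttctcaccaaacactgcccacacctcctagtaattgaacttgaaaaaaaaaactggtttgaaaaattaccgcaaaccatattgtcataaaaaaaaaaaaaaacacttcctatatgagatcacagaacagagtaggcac
Il21r promoter, chr7:125603179-125603428: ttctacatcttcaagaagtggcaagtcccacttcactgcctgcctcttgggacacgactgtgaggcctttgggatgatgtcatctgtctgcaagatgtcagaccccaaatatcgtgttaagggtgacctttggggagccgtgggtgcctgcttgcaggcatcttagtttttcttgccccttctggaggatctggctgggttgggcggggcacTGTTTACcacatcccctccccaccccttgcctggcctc

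Windows were found for 6 of the 7 genes (Il15ra has 2 starts, Il2rb was not matched) and searched on both strands for TTCNNNGAA (a STAT5 motif), TGTTTAC (a forkhead motif) and TTTTCC (the core bound by NFAT). The Il2ra window held none of the 3, and neither did those of Il2rg, Il4ra and Il9r. The Il21r window held TGTTTAC at position -38, counted back from the start, and 1 Il15ra window held TTTTCC at -245. Among 32851 windows of this length, 7.02% held the STAT5 letters, 3.17% the forkhead letters and 20.4% the NFAT letters. A match describes the letters only.

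In FOXP3, Il2ra stood at 736 CPM in F1, 584 in F2, 643 in F5, 628 in N2 and 464 in N3. In LNGFR it stood at 223 in G1, 293 in G2 and 312 in G3. In WT Treg it stood at 330 in E2, 932 in G4 and 883 in L1. Every FOXP3 and WT Treg code lay above every LNGFR code, although E2 was close to G3, and the FOXP3 and WT Treg codes overlapped. In bulk samples of this kind, more cells with the transcript and more transcript per cell cannot be told apart.

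Against LNGFR, Il2ra was 1.15 higher in FOXP3 on the log2 scale (SE 0.36, 95% interval 0.37 to 1.93, unadjusted p = 0.00728), with an adjusted p of 0.221 by the quasi-likelihood test of edgeR over all genes. WT Treg was 1.38 above LNGFR (SE 0.40, interval 0.53 to 2.23, unadjusted p = 0.0039, adjusted p = 0.141 by edgeR). Neither passed the threshold of 0.05. FOXP3 and WT Treg differed by -0.23 (SE 0.34, interval -0.97 to 0.51, adjusted p = 0.776), and this interval holds no difference as well as a clearly higher level in WT Treg. The first 2 comparisons share the LNGFR codes, so their values are not independent of each other.

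None of the 7 genes passed in any of the 3 comparisons by edgeR, where 0.543% of all genes passed between FOXP3 and LNGFR, 1.3% between WT Treg and LNGFR and 0.259% between FOXP3 and WT Treg. In simulated counts, 67 genes of each of these sizes were changed, drawn from all tested genes and not from the receptors. On them this fit recovered 7.46%, 0% and 4.48% of 2-fold changes and 41.8%, 26.9% and 44.8% of 4-fold changes, in the same order. A gene that did not pass is therefore not shown to be unchanged. At an unadjusted p under 0.05 the counts were 1 (Il2ra), 1 (Il2ra) and 0 of 7, where 10.3%, 14.8% and 16.5% of all genes had such a p, so that these counts are near the background. DESeq2 called Il2ra for FOXP3 against LNGFR (log2 difference 1.11, adjusted p = 0.0147, 2.11% of genes called) and for WT Treg against LNGFR (1.35, adjusted p = 0.0034, 5.15% called). Limma with voom weights did so as well, at 1.08 (adjusted p = 0.00727, 6.68% of genes called) and 1.46 (adjusted p = 0.0017, 5.63% called). Both tools called 0 of 7 genes for FOXP3 against WT Treg, where DESeq2 called 14% and limma 6.78% of genes.

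With edgeR, the call on Il2ra also changed with the codes and libraries kept. Without E2 in the fit, Il2ra was 1.16 higher in FOXP3 than in LNGFR (edgeR adjusted p = 0.0356, 1.53% of genes called) and 1.73 higher in WT Treg (adjusted p = 0.00822, 1.86% called). With the 3 shallowest libraries left out (both of E2 and 1 of G1), the differences were 1.05 (adjusted p = 0.0433, 1.63% of genes called) and 1.63 (adjusted p = 0.0103, 2.07% called). Without both libraries of G1, Il2ra was not called, at 1.01 (adjusted p = 0.469) and 1.24 (adjusted p = 0.228). Over all 22 alternatives the sign held in both comparisons, with adjusted p from 0.000117 to 0.596 for FOXP3 and from 1.83e-05 to 0.516 for WT Treg. The size ranged from 0.9998 to 1.33 and from 1.10 to 1.73, and 6 of the 22 passed in each.

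**Figure D1:**
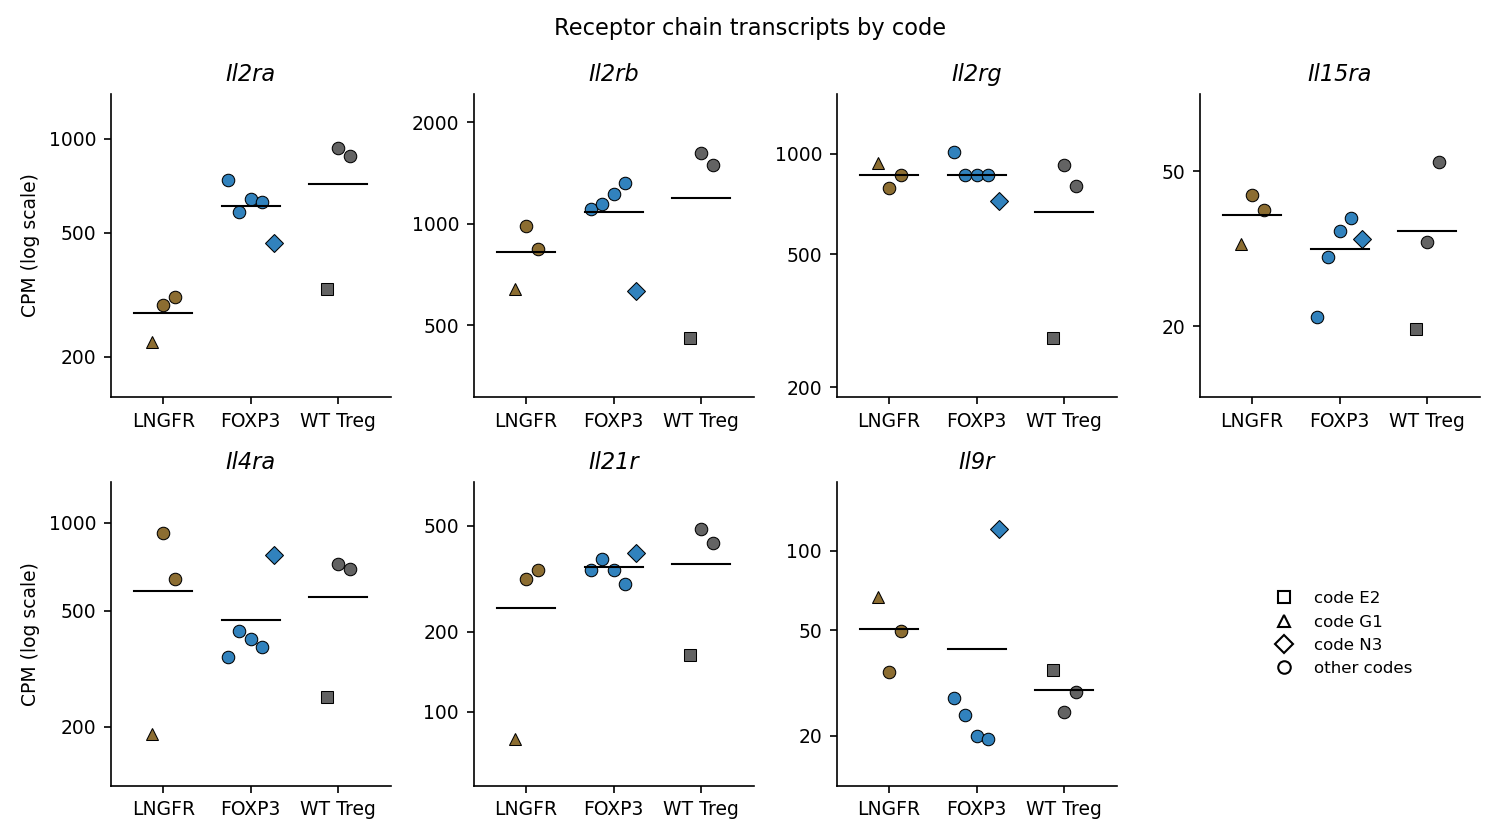
CPM of each of the 7 receptor genes (log scale) in every code of the 3 groups, with bars at the group means and separate symbols for E2, G1 and N3. Il2ra is the gene whose LNGFR codes, 223 to 312 CPM, lie below all others, while N3 stands high for Il9r and Il4ra and G1 stands low for Il21r and Il4ra.

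The beta chain Il2rb, which carries signals of IL-2 and IL-15 into the cell, lies on chromosome 15 at 78479256 to 78495271, minus strand. It stood at 1109 CPM in F1, 1147 in F2, 1228 in F5, 1319 in N2 and 633 in N3. LNGFR codes had 643, 987 and 845 in G1, G2 and G3. WT Treg codes had 459 in E2, 1625 in G4 and 1495 in L1. N3 was below, and the other 4 FOXP3 codes above, all LNGFR codes, and E2 was the lowest of all 11. The group difference was 0.40 from LNGFR to FOXP3 (interval -0.49 to 1.28, edgeR adjusted p = 0.761), 0.53 from LNGFR to WT Treg (interval -0.44 to 1.51, adjusted p = 0.604) and -0.14 from WT Treg to FOXP3 (interval -1.005 to 0.73, adjusted p = 0.898).

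Il2rg, the shared gamma chain, is on the X chromosome at 101264378 to 101268255, minus strand. Its levels were 1012 CPM in F1, 863 in F2, 862 in F5, 862 in N2 and 722 in N3, then 942, 788 and 865 in G1, G2 and G3. WT Treg codes had 280 in E2, 928 in G4 and 800 in L1. Outside E2, all 10 codes lay between 722 and 1012, with no separation of groups. FOXP3 and LNGFR differed by -0.0015 (interval -0.77 to 0.76, edgeR adjusted p = 0.999), and WT Treg and LNGFR by -0.37 (interval -1.22 to 0.49, adjusted p = 0.702). FOXP3 against WT Treg gave 0.37 (interval -0.41 to 1.14, adjusted p = 0.653). The gene model Gm20489 shares 30.5% of the exon bases of Il2rg and held 1, 1 and 0 counts over the FOXP3, LNGFR and WT Treg groups. How reads in such overlaps were assigned is not given in the sources used here.

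Ratios between the chains within a code do not depend on how libraries are scaled to each other. They are ratios of counts, not corrected for gene length. The log2 ratio of Il2ra to Il2rg was -0.46 in F1, -0.56 in F2, -0.42 in F5, -0.46 in N2 and -0.64 in N3. It was -2.08 in G1, -1.43 in G2 and -1.47 in G3, against 0.24 in E2, 0.01 in G4 and 0.14 in L1. On this scale the 3 groups did not overlap at all: LNGFR was lowest, FOXP3 was in between and WT Treg was highest. As linear ratios, Il2ra had on average 0.316 counts per Il2rg count in LNGFR, 0.703 in FOXP3 and 1.09 in WT Treg. E2 and N3, whose CPM stood apart from their groups, lay beside their group's other codes in this ratio.

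Few of the genes tested had that separation: 107 of 15461 genes, or 0.692%, had all 3 groups apart from each other in the ratio to Il2rg. Taken pair by pair, 8.52% of genes had no overlap in this ratio between FOXP3 and LNGFR, 15.9% between WT Treg and LNGFR, and 11.1% between FOXP3 and WT Treg. The ratio was chosen with the group levels in view and is a description without a test. At the level of single libraries the order had 1 exception, the shallow library of G1, which had 34 Il2rg counts and a log2 ratio of 0.55.

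The log2 ratio of Il2ra to Il2rb, the chains of the high-affinity and the signalling arm, was -0.80 ± 0.27 (SD, n = 5) in FOXP3, -1.57 ± 0.16 (n = 3) in LNGFR and -0.68 ± 0.18 (n = 3) in WT Treg. FOXP3 codes ran from -1.07 in N2 to -0.45 in N3, with F1 at -0.59, F2 at -0.97 and F5 at -0.93. LNGFR codes were -1.53, -1.75 and -1.44 in G1, G2 and G3, and WT Treg codes were -0.47 in E2, -0.80 in G4 and -0.76 in L1. All 8 codes of FOXP3 and WT Treg lay above all 3 LNGFR codes. FOXP3 exceeded LNGFR by 0.77 (exact two-sided permutation test, p = 0.0179, the smallest that 5 against 3 codes can give, and 0.0536 adjusted over the 3 comparisons). WT Treg exceeded LNGFR by 0.89 (exact permutation p = 0.1, the smallest possible with 3 against 3, adjusted p = 0.15). FOXP3 and WT Treg differed by -0.13 (exact permutation p = 0.482, smallest possible 0.0179). None of the 3 adjusted values was under 0.05. With these numbers of codes WT Treg against LNGFR could not have passed. FOXP3 against LNGFR could have done so only if FOXP3 against WT Treg had also given its smallest p.

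Il2rb had a pattern of its own against Il2rg. The log2 ratio of Il2rb to Il2rg was 0.71, 0.81 and 0.90 in E2, G4 and L1, above every code of the other groups. FOXP3 codes ran from -0.19 (N3) to 0.61 (N2) and LNGFR codes from -0.55 (G1) to 0.32 (G2), so these 2 groups overlapped. Il21r, too, was higher per Il2rg count in all WT Treg codes (-0.93 to -0.78) than in all LNGFR codes (-3.57 to -1.32). Of the 6 chains set against Il2rg, 1 separated FOXP3 from LNGFR, 3 separated WT Treg from LNGFR and 2 separated FOXP3 from WT Treg, against the shares of all genes given above.

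**Figure D2:**
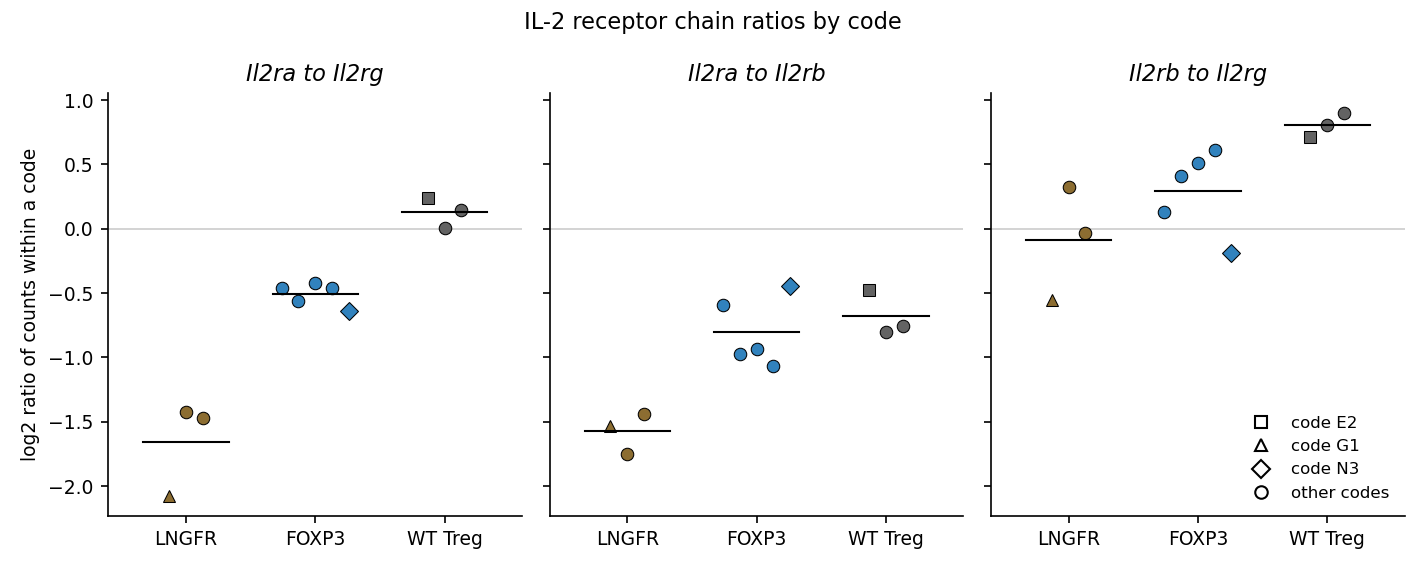
Log2 ratio of counts within each code for Il2ra to Il2rg, Il2ra to Il2rb and Il2rb to Il2rg, by group, with bars at the group means. In the first panel the 3 groups are apart, at -2.08 to -1.43 in LNGFR, -0.64 to -0.42 in FOXP3 and 0.01 to 0.24 in WT Treg, and in the last panel the WT Treg codes lie above the rest.

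Il15ra encodes the chain that binds IL-15 and presents it to cells with Il2rb and Il2rg. It spans 11705290 to 11734317 on chromosome 2, plus strand, and was among the lowest of the 7. FOXP3 codes had 21.1 CPM in F1, 30.2 in F2, 35.0 in F5, 38.0 in N2 and 33.5 in N3. LNGFR codes had 32.6, 43.4 and 39.8 in G1, G2 and G3, and WT Treg codes 19.7, 32.8 and 52.7 in E2, G4 and L1. The groups overlapped in all 3 comparisons, with differences of -0.29 (interval -0.92 to 0.34), -0.09 (interval -0.81 to 0.63) and -0.20 (interval -0.84 to 0.44) in the order FOXP3 against LNGFR, WT Treg against LNGFR, FOXP3 against WT Treg. The 2 libraries of a code also differed most for this gene, by a median of 0.25 on the log2 scale over 9 codes, against 0.02 to 0.12 for the other 6.

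Il4ra, the IL-4 receptor alpha chain that signals through STAT6, and Il21r, the IL-21 receptor, lie next to each other on chromosome 7, plus strand, at 125552120 to 125579474 and 125603429 to 125633570, with a gap of 23954 bp. Il4ra stood at 347 CPM in F1, 426 in F2, 400 in F5, 377 in N2 and 778 in N3. LNGFR codes had 189, 921 and 643 in G1, G2 and G3, and WT Treg codes had 254 in E2, 726 in G4 and 695 in L1. G1 was the lowest and G2 the highest of all 11 codes, so that the LNGFR group alone spanned the range of the other 2. FOXP3 differed from LNGFR by -0.33 (interval -1.38 to 0.72, edgeR adjusted p = 0.832), WT Treg from LNGFR by -0.06 (interval -1.25 to 1.12, adjusted p = 0.974) and FOXP3 from WT Treg by -0.27 (interval -1.32 to 0.79, adjusted p = 0.823). The antisense model Gm44876 shares 9.51% of the exon bases of Il4ra and held 8, 8 and 2 counts over the 3 groups, and whether counting used strand is not given.

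Il21r stood at 342 CPM in F1, 374 in F2, 341 in F5, 302 in N2 and 394 in N3, the narrowest spread of the 7 genes within FOXP3. LNGFR codes had 79.0, 315 and 342 in G1, G2 and G3, and WT Treg codes had 163 in E2, 488 in G4 and 431 in L1. G1 and E2 were below all other codes. FOXP3 was 0.51 above LNGFR (interval -0.46 to 1.49, edgeR adjusted p = 0.729), WT Treg 0.56 above LNGFR (interval -0.52 to 1.64, adjusted p = 0.623), and FOXP3 and WT Treg differed by -0.05 (interval -1.01 to 0.91, adjusted p = 0.971).

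The low values of G1 were those of its deep library too, which held 218 Il21r and 521 Il4ra counts, or 78.5 and 188 CPM of its own total. They were not shared by Il2rg, highest among the LNGFR codes in G1. Some genes of the signalling pathway behind these receptors were also low there: Jak3 stood at 70.6 CPM in G1 against 349 and 407 in G2 and G3. Stat6 stood at 57.8 against 276 and 252, and Stat3 at 73.3 against 382 and 339. Others were not: Cish stood at 729 against 882 and 742, and Socs2 at 188 against 123 and 127. Genes outside the pathway were low in G1 too, such as Cd4 (255 against 689 and 724) and Cd5 (146 against 332 and 341). G1 had in addition the highest B-cell marker sum of the LNGFR codes, 1680 CPM. The part of these differences in the Il4ra and Il21r values was not tested.

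Within a code, the ratio of Il4ra to Il21r varied less among the LNGFR codes than either gene did. Its log2 value was 1.25 in G1, 1.55 in G2 and 0.91 in G3, against 0.64, 0.57 and 0.69 in E2, G4 and L1. FOXP3 codes had 0.02 in F1, 0.19 in F2, 0.23 in F5, 0.32 in N2 and 0.98 in N3. WT Treg codes lay below all LNGFR codes, and so did 4 of the 5 FOXP3 codes, while N3 lay within the LNGFR range.

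Il9r, the IL-9 receptor, is on chromosome 11 at 32187541 to 32200279, minus strand. FOXP3 codes had 27.8 CPM in F1, 24.0 in F2, 19.9 in F5, 19.4 in N2 and 122 in N3. LNGFR codes had 66.9, 34.9 and 49.9 in G1, G2 and G3, and WT Treg codes 35.5, 24.6 and 29.3 in E2, G4 and L1. The 4 FOXP3 codes other than N3 were below every LNGFR code, and N3 was the highest of all 11. With N3 in the group, FOXP3 differed from LNGFR by -0.24 (interval -1.43 to 0.94, edgeR adjusted p = 0.891). WT Treg differed from LNGFR by -0.78 (interval -2.17 to 0.60, adjusted p = 0.590) and FOXP3 from WT Treg by 0.54 (interval -0.72 to 1.79, adjusted p = 0.687).

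Without N3 the difference between FOXP3 and LNGFR in Il9r was -1.16 (edgeR adjusted p = 0.0571). Leaving out the 3 shallowest libraries as well, an alternative added after seeing the data, made it -1.29 (adjusted p = 0.038, 3.42% of genes called), and Il2ra was then 1.13 higher in FOXP3 (adjusted p = 0.0214) and 1.62 higher in WT Treg than in LNGFR (adjusted p = 0.00846, 2.75% called). Without N3, FOXP3 against WT Treg turned in Il9r from 0.54 to -0.38 (adjusted p = 0.549). The summed B-cell markers in N3 were 5729 CPM against 155 to 643 in the other FOXP3 codes, and the B-cell gene Cd79a stood at 994 CPM. G1, with the second-highest Il9r, also had the second-highest B-cell sum. The part of B-cell RNA in the Il9r and Il4ra levels was not tested. The summed level of 6 mast cell and basophil markers was 69.8 CPM in E2 and at most 7.52 in the other 10 codes, and its part in the Il9r level of E2 was not tested either. In E2 this sum rested on few counts, such as 20 of Cpa3 and 23 of Ms4a2. Low-count genes outside that list were high in E2 too, such as Ncr1 (29.0 CPM, 22 counts) and Il15 (23.7 CPM, 18 counts), though Lyz2 had 0 counts there.

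**Figure D3:**
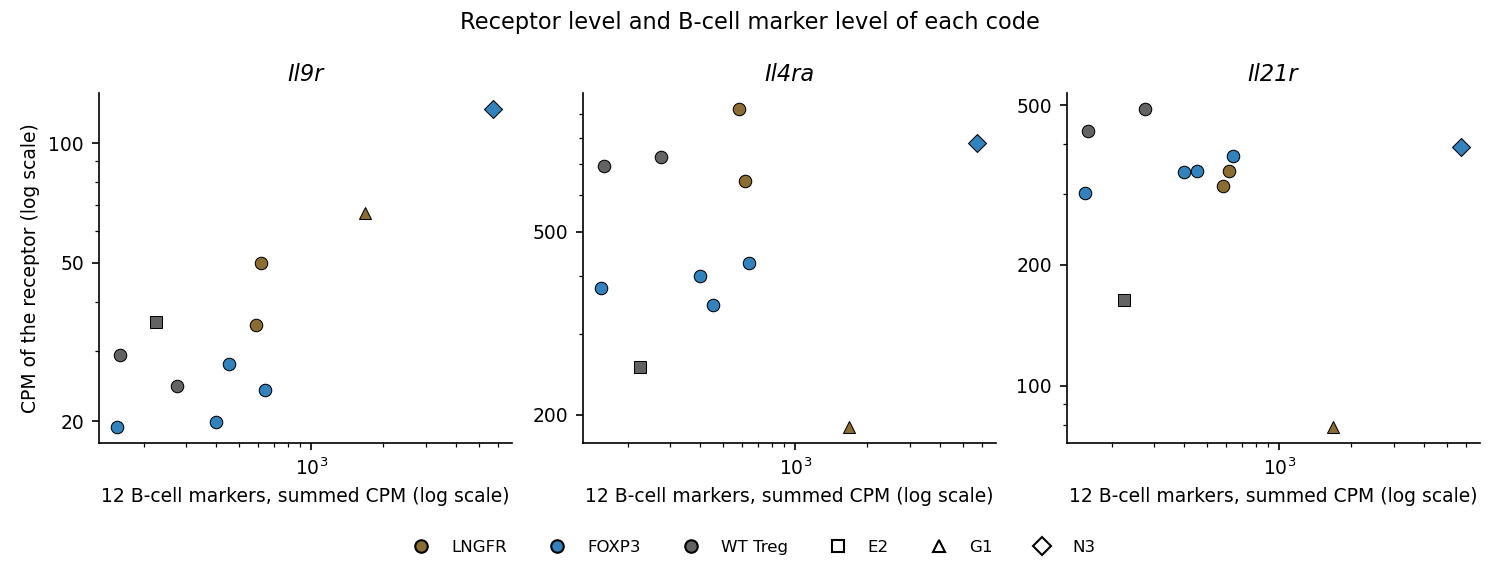
CPM of Il9r, Il4ra and Il21r against the summed CPM of 12 B-cell markers in each of the 11 codes, both on log scales. N3, at 5729 CPM of markers, has the highest Il9r (122 CPM) and a high Il4ra (778 CPM), whereas G1, at 1680 CPM of markers, is second in Il9r and lowest in Il4ra and Il21r.

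Per kilobase of exon, the gamma chain was the most abundant of the 7 transcripts in each group, at a mean of 362 ± 42.9 CPM per kb (SD, n = 5) in FOXP3, 362 ± 32.1 (n = 3) in LNGFR and 280 ± 144 (n = 3) in WT Treg. Il2rb followed at 254 ± 62.2, 192 ± 40.4 and 278 ± 149, and its level in WT Treg did not differ from that of Il2rg beyond the spread. In FOXP3, Il2ra (107 ± 17.4) and Il21r (105 ± 10.7) came next and were not separable, with Il4ra at 77.6 ± 29.5. In LNGFR, Il2ra had the rank 5, at 48.3 ± 8.25, after Il4ra (97.3 ± 61.6) and Il21r (73.8 ± 43.5), though the spread of these 3 overlapped. In WT Treg, Il2ra had the rank 3 in every code, at a mean of 125 ± 58.5, ahead of Il21r (109 ± 52.2) and Il4ra (93.0 ± 44.0). Il9r and Il15ra were last in each group, between 6.03 and 10.2 CPM per kb, and were not separable. Among 15155 tested genes with a length, Il2ra per kilobase exceeded 92.5% in LNGFR, 96.9% in FOXP3 and 98.2% in WT Treg.

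With E2, G1 and N3 all left out, codes that stood apart in depth, repeat-derived counts or B-cell markers, more receptor genes passed the edgeR test. For FOXP3 against LNGFR, 4 of 7 were called, with 10.7% of all genes: Il2ra 1.09 higher (adjusted p = 0.000117), Il2rb 0.39 higher (adjusted p = 0.0439), Il4ra -1.02 (adjusted p = 0.000497) and Il9r -0.90 (adjusted p = 0.0126). For WT Treg against LNGFR, 3 of 7 were called, with 7.66% of genes: Il2ra 1.59 higher (adjusted p = 1.83e-05), Il2rb 0.77 higher (adjusted p = 0.00249) and Il21r 0.49 higher (adjusted p = 0.0373). For FOXP3 against WT Treg, 4 of 7 were called, with 7.42% of genes, all lower in FOXP3: Il2ra by -0.49 (adjusted p = 0.0157), Il2rb by -0.38 (adjusted p = 0.0492), Il4ra by -0.88 (adjusted p = 0.00254) and Il21r by -0.44 (adjusted p = 0.028). LNGFR and WT Treg then had 2 codes each. These codes were chosen with their values known, so the calls describe the 8 other codes and do not replace the values over all 11.

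**Figure D4:**
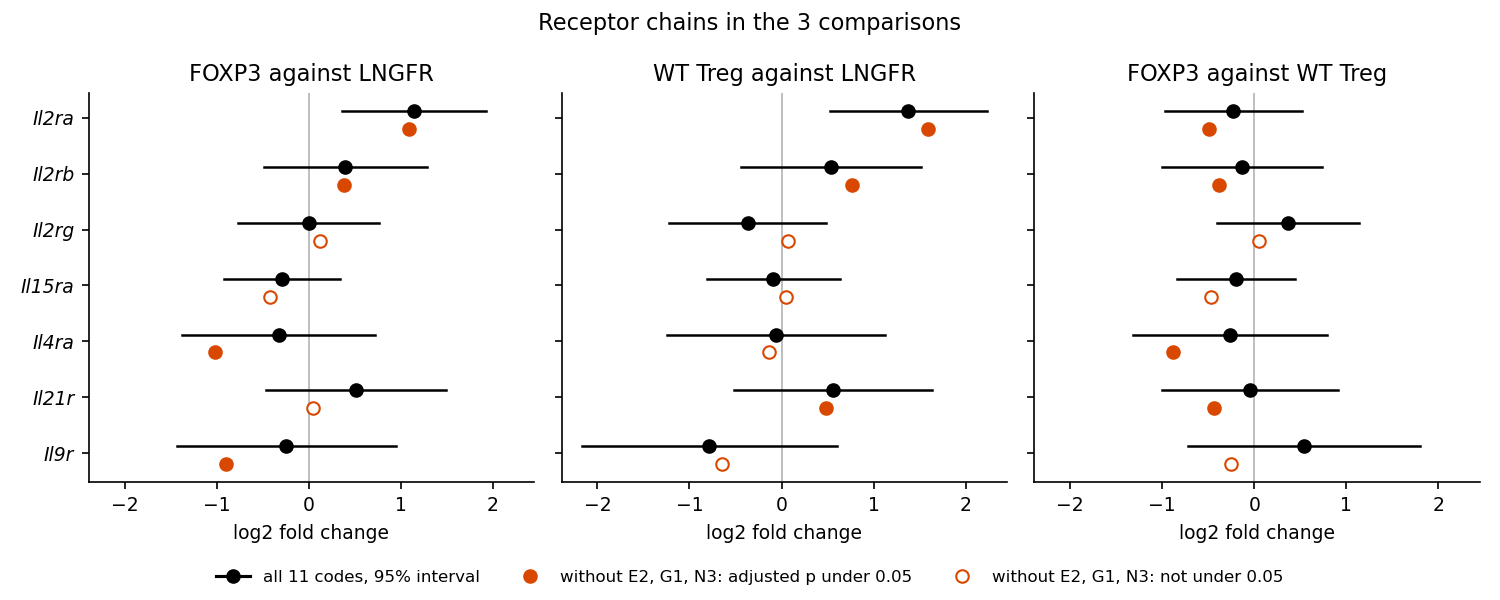
Log2 fold change of the 7 receptor genes in the 3 comparisons, over all 11 codes with 95% intervals (black) and without E2, G1 and N3 (orange, filled where the adjusted p was under 0.05). Over all codes only the intervals of Il2ra against LNGFR, 0.37 to 1.93 and 0.53 to 2.23, lie clear of 0, and the orange points for Il4ra and Il9r in the first panel lie further from 0 than the black ones.

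By count, the codes of 1 of 7 receptor genes (Il2ra) did not overlap between FOXP3 and LNGFR, against 9.02% of all tested genes. The count was again 1 of 7 (Il2ra) for WT Treg against LNGFR, against 16.6%, and 0 of 7 for FOXP3 against WT Treg, against 12.4%. The median log2 difference over the 7 was -0.0015 against LNGFR in FOXP3, -0.06 against LNGFR in WT Treg and -0.14 between FOXP3 and WT Treg, beside -0.02, 0.08 and 0.01 over all genes. Il7r stood at 744 ± 130 CPM in FOXP3, 903 ± 182 in LNGFR and 613 ± 193 in WT Treg. Its WT Treg codes (392, 698 and 750 in E2, G4 and L1) lay below all LNGFR codes (783, 1113 and 812 in G1, G2 and G3), at a difference of -0.56 (interval -1.30 to 0.19, edgeR adjusted p = 0.458).

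Among the cytokines of these receptors and of related chains such as Il7r and Crlf2, edgeR made calls in all 3 comparisons. Of 8 cytokine genes, 4 passed the filter on low counts. Against LNGFR, 2 of the 4, Il4 and Il13, fell in FOXP3 (0.543% of all genes called) and in WT Treg (1.3% called). For FOXP3 against WT Treg, 1 of the 4, Il4, was called, with 0.259% of all genes. Il4, the ligand of Il4ra, stood at 34.0 ± 10.1 CPM (n = 5) in FOXP3, 113 ± 18.0 (n = 3) in LNGFR and 6.03 ± 3.94 (n = 3) in WT Treg, with no overlap between any pair of groups. Against LNGFR it fell by 1.73 on the log2 scale in FOXP3 (edgeR adjusted p = 0.0301). In WT Treg it fell by 4.54 (adjusted p = 0.000541), and it was 2.81 higher in FOXP3 than in WT Treg (adjusted p = 0.0154). Il13, which also signals through Il4ra, had 9, 194 and 2 counts over the FOXP3, LNGFR and WT Treg groups, and passed against LNGFR at adjusted p = 0.0128 for FOXP3 and 0.0312 for WT Treg.

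Il21, the ligand of Il21r, missed the threshold. It stood at 0.616 ± 0.690 CPM in FOXP3, 16.6 ± 1.34 in LNGFR and 2.82 ± 4.40 in WT Treg, with an edgeR adjusted p of 0.0533 for FOXP3 against LNGFR and 0.250 for WT Treg against LNGFR. DESeq2 called it in the first comparison and limma in both. Mouse Il2 itself had 17, 13 and 16 counts over the FOXP3, LNGFR and WT Treg groups and Il9 had 2, 3 and 0. Both were under the filter and were not tested by edgeR over all codes. DESeq2, which was run without that filter, called Il2 and Tslp lower in FOXP3 than in WT Treg. In this comparison it called 14% of all genes, 284 higher and 2833 lower in FOXP3. Tslp held 1 count over the FOXP3 group and 5, 1 and 5 counts in E2, G4 and L1, or 6.58, 0.162 and 0.666 CPM. Il2 stood at 0.108 to 0.559 CPM in FOXP3 and at 0.647, 0.666 and 9.21 in WT Treg, with the last in E2. The IL-2 given to the recipients was human and is not read from these counts.

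Downstream of the receptors, no gene passed among 9 JAK and STAT genes, 13 adaptors and kinases of the PI3K and MAPK arm, 15 negative regulators, 6 genes of receptor traffic and 3 tested chains of related receptors (Il7r, Crlf2 and Il13ra1), in any comparison by edgeR over all codes. Of these 46 genes, 3, 6 and 4 had an unadjusted p under 0.05 in FOXP3 against LNGFR, WT Treg against LNGFR and FOXP3 against WT Treg, beside the 10.3%, 14.8% and 16.5% of all genes. DESeq2 called 0, 2 (Cbl and Jak2) and 2 (Il13ra1 and Socs1) of them, and limma called 3 (Gab2, Jak2 and Sorl1), 4 (Cbl, Jak2, Sorl1 and Stat5b) and 3 (Sh2b3, Socs1 and Stat5b). Over all genes DESeq2 called 2.11%, 5.15% and 14%, and limma 6.68%, 5.63% and 6.78%. The JAK and STAT genes had a median log2 difference from LNGFR of 0.23 in FOXP3 and 0.21 in WT Treg, and of -0.04 between FOXP3 and WT Treg. These medians rested on single codes. Without G1 they were -0.22 in FOXP3 and -0.23 in WT Treg from LNGFR, and without G4 they were -0.087 in WT Treg from LNGFR and 0.33 between FOXP3 and WT Treg. Stat5b, which relays IL-2 signals, stood at 80.3 ± 11.98 CPM in FOXP3, 63.3 ± 35.9 in LNGFR and 135 ± 37.5 in WT Treg. Its WT Treg codes were above all LNGFR codes (difference 1.09, interval 0.18 to 2.01, edgeR adjusted p = 0.265). In this comparison 16.6% of all genes had no overlap, in either direction. G1 was far below the other LNGFR codes (22.5 CPM against 89.8 in G2 and 77.7 in G3), and E2, at 93.5, was close to G2. Socs1, a feedback inhibitor of JAK signalling, was lower in all FOXP3 codes than in all WT Treg codes (-1.10, interval -1.70 to -0.51, adjusted p = 0.0866), and Cish, a STAT5 target that restrains the receptor, stood at 680 ± 91.6, 785 ± 85.0 and 624 ± 211 in FOXP3, LNGFR and WT Treg.

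Of 17 target genes of STAT5 and gamma chain cytokines, edgeR called 2 for WT Treg against LNGFR (Foxp3 higher, Bcl2 lower). It called 1 for FOXP3 against WT Treg (Foxp3 lower in FOXP3) and 0 for FOXP3 against LNGFR. Over all genes it called 1.3%, 0.259% and 0.543% in these comparisons. Foxp3 also served to check the WT Treg label, so its calls are no result about STAT5 targets. For FOXP3 against LNGFR, 3 of the 17 had an unadjusted edgeR p under 0.05 (10.3% of all genes). There DESeq2 called 2 (Bcl2 and Foxp3, with 2.11% of all genes called) and limma 4 (with Pim2 and Tnfrsf4 added, 6.68% called). Bcl2, a survival gene that IL-7 and IL-2 signals maintain, stood at 200 ± 61.9 CPM in FOXP3, 552 ± 148 in LNGFR and 119 ± 47.1 in WT Treg. It fell by 2.20 on the log2 scale in WT Treg against LNGFR (edgeR adjusted p = 0.0185). For FOXP3 against LNGFR the difference was -1.47 (adjusted p = 0.0839), with no overlap of codes. Foxp3 rose by 3.92 in WT Treg against LNGFR (adjusted p = 0.00191) and was -2.52 in FOXP3 against WT Treg (adjusted p = 0.0192).

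Across the 11 codes, the genes whose log2 CPM followed that of Il2ra most closely, among 8856 genes with a mean of at least 10 CPM, were Tnfrsf9 (Pearson r = 0.97), Cd5 (0.95), Hbs1l (0.93), Tmem154 (0.93) and Mvd (0.93). Tnfrsf9, which encodes the costimulatory receptor CD137, stood at 162 ± 55.2 CPM in FOXP3, 17.0 ± 6.77 in LNGFR and 246 ± 153 in WT Treg. Cd5, an inhibitory surface receptor of T cells, stood at 526 ± 98.5, 273 ± 110 and 657 ± 276. Of the other receptor chains, Il2rb (r = 0.78, rank 243) and Il21r (0.74, rank 501) followed Il2ra most closely, Il2rg had r = 0.30 and Il9r -0.57. The 11 codes share group, depth and cell makeup, and these correlations describe them without a test.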

How the data were processed

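Gene expression was measured in 22 libraries of sorted mouse CD4+ T cells. The authors deposited whole-number read counts for each gene symbol and library. The tools named are STAR 2.7.3a, Subread 2.0.0 and featureCounts and the build is mm10 (GRCm38), per the submitters' processing notes. The sources used here do not give the annotation, the strand setting or the treatment of reads in overlapping genes. Per the labels' protocols, libraries were amplified for 18 PCR cycles without molecular identifiers, so PCR copies are counted too, and library totals of 332570 to 5453375 counts limit the precision of low genes. The members and gene lists were chosen with earlier results of these data known.

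Groups came from the titles, and the 2 libraries of a code were summed. Tests used edgeR 4.0.16 under R 4.3.3 (quasi-likelihood, robust, TMM, filterByExpr) with all 3 groups in 1 fit, and Benjamini-Hochberg adjustment over 15462 genes at 0.05. A CPM value is 1000000 times a count over its TMM-scaled total. SE is the absolute log2 fold change over the root of F. Ratios used counts plus 0.5 and exact permutation tests adjusted over 3 comparisons. CPM per kb used merged GENCODE M21 exons. Alternatives were DESeq2 1.42.0, limma 3.58.1 with voom quality weights, DESeq2-type (RLE) size factors, no filter, only the groups compared, first or second libraries alone, without repeat-derived models, without the 3 libraries under 1000000 counts, without E2, G1 and N3, and without each code. Fits were tested on simulated data. Named were all 7 members, Il7r, Foxp3, called genes of the pathway lists (at most 4 per list), the 5 genes most like Il2ra, and lead markers. Il2, Il9, Il21, Jak3, Stat3, Stat5b, Stat6, Socs1, Socs2, Cish and the genes given as called by other tools only were named after their values were seen.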

Additional observations from a re-analysis of the deposited data

Results flagged for a closer look

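Among the 5 FOXP3 codes, N3 stood far from the other 4 in 3 values by Dixon's test (gap to the nearest code over the range, limit 0.71). Chance alone meets this limit in about 1 in 20 groups. More values than these 3 were examined, so some flags can arise by chance. Il4ra was at 778 CPM in N3 and between 347 and 426 in the others. Il9r was at 122 CPM in N3 and between 19.4 and 27.8 in the others. The log2 ratio of Il9r to Il2rg, which shares its Il9r counts with the previous value, was -2.57 in N3 and between -5.47 and -5.16 in the others. The summed level of 12 B-cell markers was 5729 CPM in N3 and at most 643 in the other 4, and its part in these values was not tested. Groups of 3 codes could not be examined in this way.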

How the results depend on the processing

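Over 22 alternatives per comparison, the log2 fold changes of the 7 genes kept their direction and their side of the threshold in 129 of 154 values for FOXP3 against LNGFR, 130 of 154 for WT Treg against LNGFR and 134 of 154 for FOXP3 against WT Treg. The ratio of Il2ra to Il2rb kept its direction in all 13, 11 and 13 alternatives run on it, and its p-values say nothing about stability at these numbers of codes. The number of genes called, 0 of 7 throughout, became 1 for FOXP3 against LNGFR and 1 for WT Treg against LNGFR with DESeq2, with limma and without the 3 shallowest libraries, and 2 and 1 without N3 and those libraries (Il9r with Il2ra in the first). Without E2, G1 and N3 it became 4, 3 and 4 in the 3 comparisons. Leaving out 1 code at a time gave 0 to 1 calls in both comparisons with LNGFR, the 1 being Il2ra without E2.

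None of the changes of sign passed the threshold. For FOXP3 against LNGFR, Il2rg turned to 0.084 with limma, 0.17 without a filter, 0.12 without E2, G1 and N3, 0.60 in second libraries and 0.022 without repeat-derived models, and Il9r to 0.027 in second libraries. Leaving out single codes gave -0.054 to 0.11 for Il2rg, -0.75 to 0.23 for Il4ra and -1.16 to 0.0005 for Il9r. For WT Treg against LNGFR, Il15ra turned to 0.080 with limma, 0.040 without the 3 shallowest libraries, 0.049 without E2, G1 and N3, 0.17 in second libraries and 0.034 without N3 and the shallow libraries. Il4ra turned to 0.25, 0.084 and 0.24 without the 3 shallowest libraries, in second libraries and without N3 and the shallow libraries. Il2rg turned to 0.065 without E2, G1 and N3 and 0.31 in second libraries. Single codes left out gave -0.68 to 0.012 for Il2rg, -0.54 to 0.16 for Il15ra and -0.49 to 0.43 for Il4ra.

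For FOXP3 against WT Treg, Il9r turned to -0.15 with limma, -0.25 without E2, G1 and N3 and -0.25 without N3 and the shallow libraries. Il21r turned to 0.092 without a filter and Il2rg to -0.0037 without the 3 shallowest libraries. Single codes left out gave -0.57 to 0.13 for Il2ra, -0.52 to 0.26 for Il2rb, -0.44 to 0.34 for Il15ra, -0.61 to 0.090 for Il4ra, -0.39 to 0.35 for Il21r and -0.38 to 0.71 for Il9r. The cause of these changes was not tested. No paired analysis was possible because the codes differ between groups. Depth limits Il15ra and Il9r most, with 15 and 27 counts in E2.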
